A study of Mus musculus with 13 samples.

Results

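The genes described here are 10 precursors of neuropeptides expressed in the mouse brain, Cck, Tac1, Penk, Pdyn, Nts, Sst, Npy, Vip, Ucn and Cartpt. The rule lists them by name and sets no threshold on a measured value. They were taken from the 49315 genes counted in each library, and all 10 passed the filter that kept 19360 genes for testing. RNA-Seq was performed on total RNA of the midbrains of 13 male mice, each library from a distinct animal. The study asked how the kinase RIPK3 in astrocytes shapes the response to MPTP, a neurotoxin that kills dopaminergic neurons. All mice carried Ripk3fl/fl on a C57BL/6J background and were 8 to 12 weeks old. All received tamoxifen at 60 mg/kg for 5 days, which activates the inducible Cre that the astrocyte promoter Aldh1l1 drives in Aldh1l1Cre+ mice (Cre+), while littermates without it (Cre-) kept Ripk3. MPTP at 20 mg/kg or Saline was given once daily for 5 days, and midbrains were harvested 3 days after the last dose. There were 4 mice in the Cre+ MPTP group and 3 in each of the Cre- Saline, Cre+ Saline and Cre- MPTP groups. Ripk3 itself had 4 to 40 counts in the 6 Cre- libraries and 4 to 19 in the 7 Cre+ libraries, so these counts, from whole tissue, could not check the genotype of a mouse.

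Neuropeptides are cut from larger precursor proteins in the secretory pathway, stored in dense-core vesicles, and released to act on G protein-coupled receptors. Each is made by particular neurons: somatostatin (Sst), neuropeptide Y (Npy), vasoactive intestinal peptide (Vip) and cholecystokinin (Cck) are known from cortical and hippocampal interneurons as well as the midbrain, where Cck is also made by dopaminergic neurons, and the urocortin (Ucn) and CART (Cartpt) precursors are known from the Edinger-Westphal nucleus, a small cell group at the midline. In bulk tissue fewer cells of a type and less RNA per cell cannot be told apart.

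Expression of several members is known to be driven through cAMP response elements, and the Sst promoter is a textbook example. The palindrome TGACGTCA, searched on both strands of the RefSeq promoter windows (GRCm38.p6, 250 bases before to 50 after each gene's start), was present in 3 of the 9 members with such a window, Cartpt, Sst and Ucn, and in 1.79% of all 32851 windows. The shorter TGACG, which lies inside the palindrome, was present in 7 of 9 members and in 20.8% of all windows. The AP-1 motif TGANTCA was present in 1 member, Nts, and in 7.81% of all windows. A match describes letters only, and no match says only that these letters are not in the window. The windows around the palindrome are shown for the 3 members that hold it, and a link between the palindrome and the spread between mice was not tested. Capitals mark the palindrome, which begins 44, 112 and 48 bases before the start in Ucn, Cartpt and Sst.
Ucn promoter, chr5:31138896-31138979, minus strand: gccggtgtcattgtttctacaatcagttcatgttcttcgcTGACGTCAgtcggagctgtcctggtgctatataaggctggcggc
Cartpt promoter, chr13:99900748-99900835, minus strand: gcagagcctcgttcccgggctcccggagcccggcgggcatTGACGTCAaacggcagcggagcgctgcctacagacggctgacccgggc
Sst promoter, chr16:23890845-23890932, minus strand: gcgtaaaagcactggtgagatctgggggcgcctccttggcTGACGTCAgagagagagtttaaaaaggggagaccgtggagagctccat

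The members' values are also set against base composition below. The first 90 coding bases (GENCODE M21, GRCm38) of a member with a low share of G and C in the whole transcript (Vip 42.2%) and of the members with the highest (Cck 56.9%, Ucn 66.1%) are given with G and C in capitals. These starts held 53.3% G and C in Vip, 63.3% in Cck and 65.6% in Ucn.
Vip, exon 2, chr10:5640628-5640717, plus strand: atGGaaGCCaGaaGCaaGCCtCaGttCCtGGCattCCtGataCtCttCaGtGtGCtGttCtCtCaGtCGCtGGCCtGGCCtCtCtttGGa
Cck, exon 2, chr9:121494441-121494530, minus strand: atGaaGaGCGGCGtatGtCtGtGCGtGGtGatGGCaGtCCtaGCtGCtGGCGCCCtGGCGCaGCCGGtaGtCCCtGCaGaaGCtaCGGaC
Ucn, exon 2, chr5:31138431-31138520, minus strand: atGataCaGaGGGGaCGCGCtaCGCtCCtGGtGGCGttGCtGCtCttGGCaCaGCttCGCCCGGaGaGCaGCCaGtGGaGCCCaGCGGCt

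The total count over genes ranged from 11489150 to 29397278 (median 24907639), and Cre- MPTP 1 had the lowest, the other 12 libraries holding at least 17713289. Levels are given as CPM, the share of a library's counts that a gene takes, scaled with TMM factors. A pair of libraries stood apart from the rest of their groups, and fits without them are given beside the comparisons they moved. Cre- MPTP 1 lay above all 11 remaining libraries for 34.8% of tested genes and below all of them for 43.5%, and Cre- Saline 1 did so for 20.6% and 19.6%. Dopaminergic markers of the midbrain (12 genes including Th and Slc6a3) were present in every library, with a sum of 569.5 to 735 CPM in the 11 libraries, 586 in Cre- Saline 1 and 436 in Cre- MPTP 1.

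When levels were compared per length (TPM, median of 13 mice), Sst was the most abundant member, at 424 TPM, above Cartpt in 13 of 13 mice. Cartpt (170 TPM), Penk (143), Cck (84.3) and Ucn (44.4) followed, each above the next in at least 11 of 13 mice. Tac1 (33.6 TPM) and Npy (32.8) could not be put in order, since Tac1 was above Npy in 6 of 13 mice. Nts (15.3 TPM), Pdyn (6.34) and Vip (5.62) were lowest, and Pdyn was above Vip in 9 of 13 mice. These medians ranked between the 35.5th percentile of tested genes for Vip and the 98.6th for Sst. The depth followed this order only in part: Sst had 1158 to 3158 counts per library and Penk 1112 to 2078, whereas Nts, Vip and Pdyn fell to 23, 19 and 24 counts in Cre- MPTP 1.

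Penk, the enkephalin precursor (chr4:4133531-4138819, minus strand), had 79.6, 66.9 and 62.5 CPM in Cre- Saline mice 1 to 3, 65.8, 69.3 and 72.5 in Cre+ Saline mice 1 to 3, 121, 66.7 and 68.6 in Cre- MPTP mice 1 to 3 and 64.8, 65.6, 56.7 and 60.0 in Cre+ MPTP mice 1 to 4. The Penk values of 11 mice lay between 56.7 and 72.5 CPM, with Cre- Saline 1 and Cre- MPTP 1 above them. Penk shares 233 exonic bases with A830012C17Rik on the opposite strand, and how strand was used in counting is not given in the sources used here, so its counts could hold reads of that gene. Tac1, the precursor of substance P (chr6:7554879-7565834, plus strand), had 47.5, 35.9 and 29.7 CPM in Cre- Saline mice 1 to 3, 33.4, 32.5 and 33.7 in Cre+ Saline mice 1 to 3, 33.1, 32.4 and 31.1 in Cre- MPTP mice 1 to 3 and 33.0, 31.2, 37.2 and 33.1 in Cre+ MPTP mice 1 to 4, so that every group overlapped every other. Pdyn, the dynorphin precursor (chr2:129686565-129699844, minus strand), had 10.2, 4.76 and 4.53 CPM in Cre- Saline mice 1 to 3, 5.56, 5.29 and 6.36 in Cre+ Saline mice 1 to 3, 2.60, 6.65 and 5.05 in Cre- MPTP mice 1 to 3 and 5.58, 6.99, 4.13 and 3.66 in Cre+ MPTP mice 1 to 4. Pdyn was highest in Cre- Saline 1 and lowest in Cre- MPTP 1, while the Cre+ MPTP mice alone spread from 3.66 to 6.99 CPM.

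With Cre- MPTP 1 set aside, Sst, Npy, Vip and Cck were each above the 11 other mice in Cre- Saline 1, as were Tac1, Penk, Pdyn and Nts. Sst (chr16:23889581-23890844, minus strand) had 121, 80.1 and 73.1 CPM in Cre- Saline mice 1 to 3, 61.1, 80.9 and 77.6 in Cre+ Saline mice 1 to 3, 342, 64.9 and 55.2 in Cre- MPTP mice 1 to 3 and 69.1, 64.8, 70.9 and 71.7 in Cre+ MPTP mice 1 to 4. Npy (chr6:49822710-49829507, plus strand) had 15.1, 5.47 and 4.09 CPM in Cre- Saline mice 1 to 3, 3.71, 4.84 and 7.08 in Cre+ Saline mice 1 to 3, 8.13, 7.01 and 3.86 in Cre- MPTP mice 1 to 3 and 5.91, 6.21, 4.84 and 6.11 in Cre+ MPTP mice 1 to 4. Npy was highest and Sst second highest in Cre- Saline 1. For Npy the remaining mice overlapped across the 4 groups, whereas the 2 other Cre- Saline mice were above all 4 Cre+ MPTP mice and Cre- MPTP 2 and 3 for Sst. Vip (chr10:5639218-5647617, plus strand) had 12.5, 6.33 and 3.69 CPM in Cre- Saline mice 1 to 3, 5.40, 3.91 and 6.13 in Cre+ Saline mice 1 to 3, 2.06, 5.62 and 2.11 in Cre- MPTP mice 1 to 3 and 5.21, 5.09, 6.21 and 6.60 in Cre+ MPTP mice 1 to 4. The 2 lowest Vip values were those of Cre- MPTP 1 and 3, while Cre- MPTP 2 lay within the range of every other group. Cck (chr9:121489824-121495694, minus strand) had 109, 33.4 and 31.4 CPM in Cre- Saline mice 1 to 3, 26.4, 31.2 and 37.7 in Cre+ Saline mice 1 to 3, 227, 29.1 and 27.2 in Cre- MPTP mice 1 to 3 and 27.2, 29.5, 37.8 and 33.5 in Cre+ MPTP mice 1 to 4. Outside Cre- Saline 1 and Cre- MPTP 1, Cck stayed between 26.4 and 37.8 CPM in 11 mice.

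Nts, the neurotensin precursor (chr10:102481760-102490418, minus strand), had 7.42, 4.69 and 5.08 CPM in Cre- Saline mice 1 to 3, 5.87, 5.53 and 5.83 in Cre+ Saline mice 1 to 3, 2.49, 4.63 and 5.18 in Cre- MPTP mice 1 to 3 and 5.17, 4.98, 5.23 and 4.08 in Cre+ MPTP mice 1 to 4. All 4 Cre+ MPTP mice were below all 3 Cre+ Saline mice for Nts, by a small margin. Ucn (chr5:31138063-31138829, minus strand), whose peptide acts on the corticotropin-releasing hormone receptors, had 7.62, 5.86 and 6.02 CPM in Cre- Saline mice 1 to 3, 5.01, 6.47 and 4.64 in Cre+ Saline mice 1 to 3, 69.4, 3.68 and 7.66 in Cre- MPTP mice 1 to 3 and 7.32, 5.59, 12.8 and 6.94 in Cre+ MPTP mice 1 to 4. Cartpt (chr13:99898484-99900683, minus strand), precursor of the CART peptides, had 53.1, 46.5 and 42.4 CPM in Cre- Saline mice 1 to 3, 40.4, 49.6 and 38.5 in Cre+ Saline mice 1 to 3, 216, 32.1 and 48.4 in Cre- MPTP mice 1 to 3 and 37.0, 37.9, 74.3 and 38.0 in Cre+ MPTP mice 1 to 4. Cre- MPTP 1 was far above every other mouse for both genes, and Cre+ MPTP 3 was the next highest for both.

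**Figure D1:**
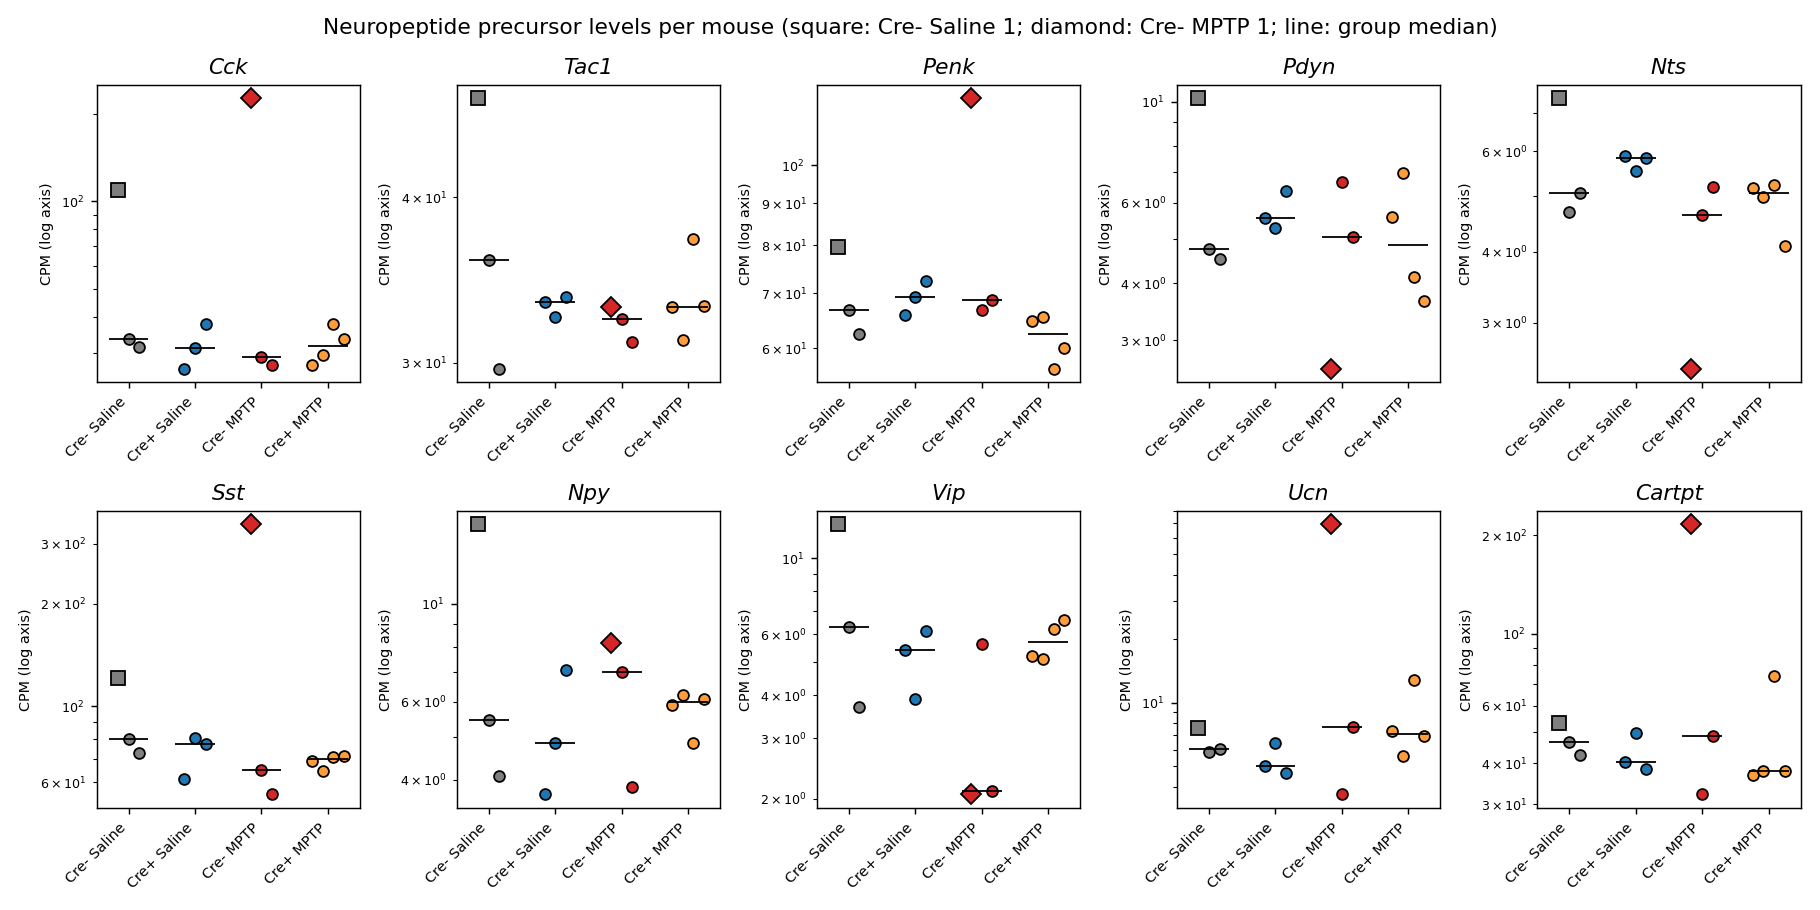
Each panel shows the CPM of 1 gene on a log axis in the 4 groups, with 1 point per mouse, a line at the group median, a square for Cre- Saline 1 and a diamond for Cre- MPTP 1. The diamond lies above all other mice for Cck, Penk, Sst, Ucn and Cartpt (Ucn 69.4 against at most 12.8 CPM elsewhere), and the square lies highest for Tac1, Pdyn, Nts, Npy and Vip.

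The response to MPTP was first compared in Cre- mice. None of the 10 members changed by the edgeR quasi-likelihood test with Benjamini-Hochberg adjustment (lowest adjusted p 0.253), while 3.18% of all tested genes were called. DESeq2 and limma voom called 0 members as well, against 1133 and 2624 of 19360 genes. At an unadjusted p under 0.05 edgeR had 2 of 10 members, against 15% of all genes: Ucn had a log2 fold change of 2.03 (SE 0.798, 95% interval 0.29 to 3.76) and Vip one of -1.18 (SE 0.454, interval -2.16 to -0.19). DESeq2 had 3 members at that level, against 17.4% of all genes, and limma voom 2, against 26.8%. Cartpt had 1.06 (SE 0.552), Sst 0.75 (SE 0.530), Cck 0.69 (SE 0.705) and Penk 0.29 (SE 0.203). Values below 0 were measured for Nts (-0.46), Pdyn (-0.42), Npy (-0.39) and Tac1 (-0.23). No member had groups that did not overlap, against 15.1% of all genes. Sizes of log2 fold change had a median of 0.574 over members and 0.297 over all genes.

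With Cre- Saline 1 and Cre- MPTP 1 both left out, a setting chosen after the data were seen, Ucn was at -0.053 (SE 0.378), Cartpt at -0.13 (SE 0.304) and Cck at -0.19 (SE 0.166). The edgeR test again called 0 members, against 1480 of 19220 genes. Vip was at -0.37 (SE 0.390), and at -0.59 with Cre- Saline 1 alone left out. With both left out, Sst was at -0.34 (SE 0.125, edgeR adjusted p 0.126). Both remaining Cre- MPTP mice (64.9 and 55.2 CPM) were below all 3 Cre- Saline mice (73.1 to 121) for Sst. The share of all genes ordered in that way is not given here. limma voom over all 13 mice, which gave Cre- MPTP 1 a weight of 0.0385 and Cre- Saline 1 one of 0.406, put Sst at -0.45 (adjusted p 0.0509). With Cre- MPTP 2 alone left out, which keeps Cre- MPTP 1, edgeR called 2 members, Ucn (2.52, adjusted p 0.0482) and Vip (-1.85, adjusted p 0.0433), and 3.87% of all genes.

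**Figure D2:**
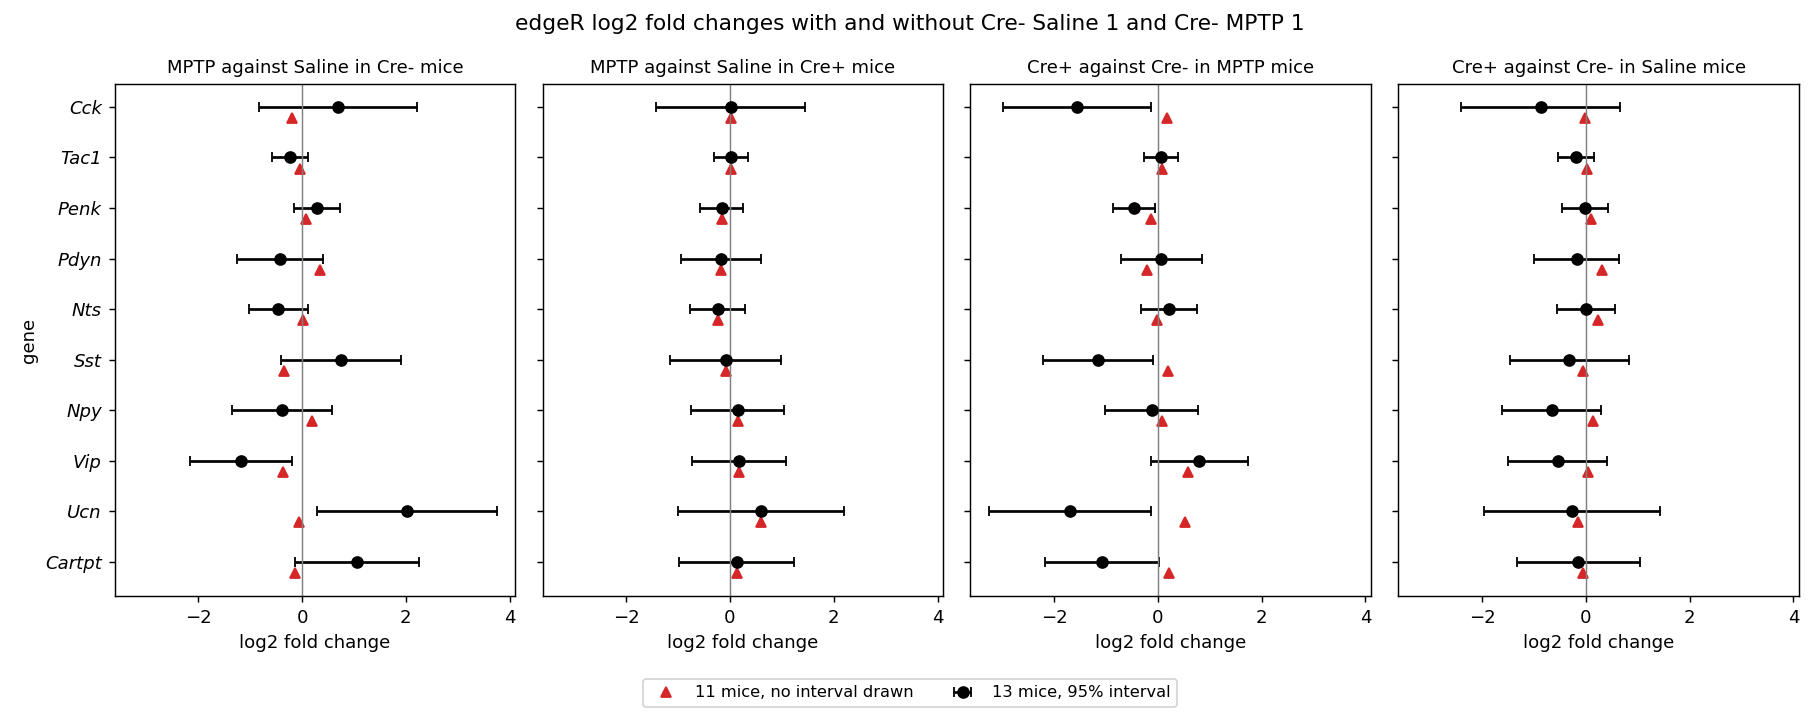
Log2 fold changes of the 10 genes in 4 comparisons, with circles for the edgeR fit to 13 mice (bars are 95% intervals) and triangles for the fit without Cre- Saline 1 and Cre- MPTP 1 (no interval drawn). The triangles of Ucn, Cck, Sst and Cartpt lie on the other side of 0 from the circles in both comparisons that include Cre- MPTP mice (Ucn -0.053 against 2.03, and 0.52 against -1.70).

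In Cre+ mice MPTP was followed by small differences only. None of the 10 members was called, as none of the tested genes was (0%), and 0 members against 3.47% of all genes had an unadjusted p under 0.05 in edgeR. DESeq2 and limma voom called 0 members, against 83 and 294 of 19360 genes. They had 0 and 2 members at an unadjusted p under 0.05, against 3.93% and 13.4% of all genes. Ucn had the largest value, 0.60 (SE 0.737, 95% interval -0.998 to 2.20), which was 0.30 without Cre+ MPTP 3. Nts was at -0.24 (SE 0.244, interval -0.77 to 0.29). Nts and Penk were the 2 of 10 members whose groups did not overlap, both lower after MPTP, against 9.66% of all genes. Penk measured 61.8 ± 4.18 CPM after MPTP (SD, n = 4) and 69.2 ± 3.31 CPM after Saline (SD, n = 3), and Nts 4.87 ± 0.535 and 5.74 ± 0.185 CPM. The size of the log2 fold change had a median of 0.155 over members and 0.114 over all genes.

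Loss of Ripk3 in astrocytes was then compared within MPTP-treated mice. None of the 10 members was called by edgeR (lowest adjusted p 0.225), DESeq2 or limma voom. Over all genes edgeR called 1.54%, and DESeq2 and limma voom called 834 and 1224 of 19360. At an unadjusted p under 0.05 edgeR had 4 members, all lower in Cre+ mice, against 19% of all genes: Ucn (-1.70, SE 0.720), Cck (-1.55, SE 0.657), Sst (-1.15, SE 0.491) and Penk (-0.46, SE 0.189). DESeq2 had 3, against 19.9% of all genes, and limma voom 1, against 16.4%. Cartpt was at -1.07 (SE 0.508) and Vip at 0.80 (SE 0.429), and Nts (0.22), Pdyn (0.067), Tac1 (0.065) and Npy (-0.12) were nearer 0. Penk alone did not overlap between the groups, against 11.3% of all genes, with 56.7 to 65.6 CPM in Cre+ MPTP and 66.7 to 121 CPM in Cre- MPTP mice. Without Cre- Saline 1 and Cre- MPTP 1, Ucn was at 0.52 (SE 0.332), Cck at 0.18 (SE 0.145), Sst at 0.20 (SE 0.109), Cartpt at 0.21 (SE 0.265) and Penk at -0.14 (SE 0.0750). That fit called 0 members, against 777 of 19220 genes. Without Cre- MPTP 2 edgeR called 1 member, Ucn (-2.19, adjusted p 0.0411), and 9.51% of all genes.

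Genotype was also compared under Saline. None of the 10 members and none of the tested genes (0%) was called, and 0 members against 0.909% of all genes had an unadjusted p under 0.05 in edgeR. DESeq2 and limma voom also had 0 members at that level, against 1.25% and 7.996% of all genes, and called 2 and 3 genes, none of them a member. Cck had the largest difference, -0.87 (SE 0.708), then Npy (-0.66, SE 0.440) and Vip (-0.55, SE 0.443), all 3 lower in Cre+ mice. Those are the 3 members in which Cre- Saline 1 stood highest relative to other mice, and without that mouse Npy was at 0.13, Vip at 0.040 and Cck at -0.026. No member had groups that did not overlap, against 11.6% of all genes.

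Whether the MPTP response itself differed between genotypes was tested as an interaction. No member was called, against 0.0103% of all genes (edgeR, lowest adjusted p 0.795). Vip was the 1 member with an unadjusted p under 0.05, against 5.76% of all genes, at 1.35 (SE 0.616), and Ucn was at -1.42 (SE 1.06). Without Cre- Saline 1 and Cre- MPTP 1, Vip was at 0.54 (SE 0.489) and Ucn at 0.66 (SE 0.478). Averaged over genotypes, MPTP gave 0 members called, against 2.84% of all genes. Ucn was the 1 member with an unadjusted p under 0.05, against 11% of all genes, at 1.31 (SE 0.543, edgeR adjusted p 0.364), and Nts was at -0.35 (SE 0.180). Leaving out 1 library at a time put the averaged Ucn value between 0.21, without Cre- MPTP 1, and 1.56, without Cre- MPTP 2. Without Cre- Saline 1 and Cre- MPTP 1 it was 0.28 (SE 0.239), and Nts was at -0.11 (SE 0.110). Of 19360 genes, DESeq2 and limma voom called 223 and 689 in the interaction and 988 and 2768 in the averaged contrast. They called 0 members in both tests, with 1 member at an unadjusted p under 0.05 in each. The shares of all genes at that level were 7.25% and 15.6% in the interaction and 12.9% and 28.2% in the averaged contrast.

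Cre- Saline 1 lay above all 11 other mice, Cre- MPTP 1 aside, for 8 of 10 members, the exceptions being Ucn and Cartpt. It did so for 20.6% of all tested genes. Against those 11 mice, Cck was at 3.50-fold their median, Npy 2.77-fold, Vip 2.32-fold, Pdyn 1.92-fold and Sst 1.70-fold, whereas Penk was at 1.21-fold. In the same mouse all 5 of 5 cortical and hippocampal markers (Emx1, Tbr1, Fezf2, Neurod2 and Neurod6) were above all 11 other mice, against the same 20.6%. Tbr1, a factor of cortical projection neurons, had 17.7 CPM there against 0.22 to 3.64 CPM in the 11 mice. The summed level of the list was 17.7 to 88.8 CPM in Cre- Saline mice, 17.2 to 19.9 in Cre+ Saline, 13.7 to 55.3 in Cre- MPTP and 11.8 to 15.9 in Cre+ MPTP. Emx1 was at 0 in Cre+ Saline 1 and Fezf2 in Cre+ MPTP 4. The part of these markers' cell types in the members' values was not tested.

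In Cre- MPTP 1, 6 members lay above the 11 mice and 3 below them, with Tac1 within. Of all tested genes 34.8% lay above and 43.5% below in this library, the background for the marker counts in it as well. Ucn was 11.5-fold, Cck 7.26-fold, Cartpt 5.36-fold, Sst 4.82-fold, Penk 1.83-fold and Npy 1.49-fold the median of the 11, and Vip, Nts and Pdyn were at 0.381, 0.482 and 0.492 of it. With 19 counts, the Vip level of 2.06 CPM has a 95% Poisson interval of 1.24 to 3.22 CPM (counting error only), which takes in the 2.11 CPM of Cre- MPTP 3. Of the 5 cortical markers 2 were above the 11 mice there, Emx1 and Neurod2, and Neurod6 (1.19 CPM) was below them. Neurod2 alone made up 51.4 of the 55.3 CPM. Tbr1 (0.65 CPM) and Fezf2 (0.33 CPM) lay within the range of the 11 mice. The striatal list summed to 651 CPM against 101 to 160 CPM in the 11 mice, with 5 of 7 genes above all of them and Drd1 below.

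In Cre- MPTP 1 the deviation of a gene followed the GC content of its transcript. Across 19294 genes, which are not independent replicates, Pearson's r between GC content and the log2 difference from the other 12 libraries was 0.535, against -0.176 to 0.320 in those 12. With genes put into 10 groups by GC content, the median difference ran from -1.17 in the lowest group to 1.58 in the highest. Of the 7 members above 50% GC, 6 were higher in Cre- MPTP 1, all but Pdyn, and the 3 below 50% GC were not. When a smooth GC trend was removed, an alternative added after seeing the data, the deviation shrank in 9 of 10 members: Ucn went from 3.46 to 0.94, Nts from -1.03 to 0.032 and Vip from -1.38 to -0.40. It stayed at 2.09 for Cck, 2.25 for Cartpt and 1.71 for Sst, from 2.85, 2.38 and 2.26. Tac1 moved away from 0, to 0.64. The trend was fitted over all genes to the deviations of the library itself, so some shrinkage was built in. The members also differed in exon length, with 504 bases in Ucn and 3402 in Vip, and no trend on length was examined. The cause of the deviations was not tested.

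**Figure D3:**
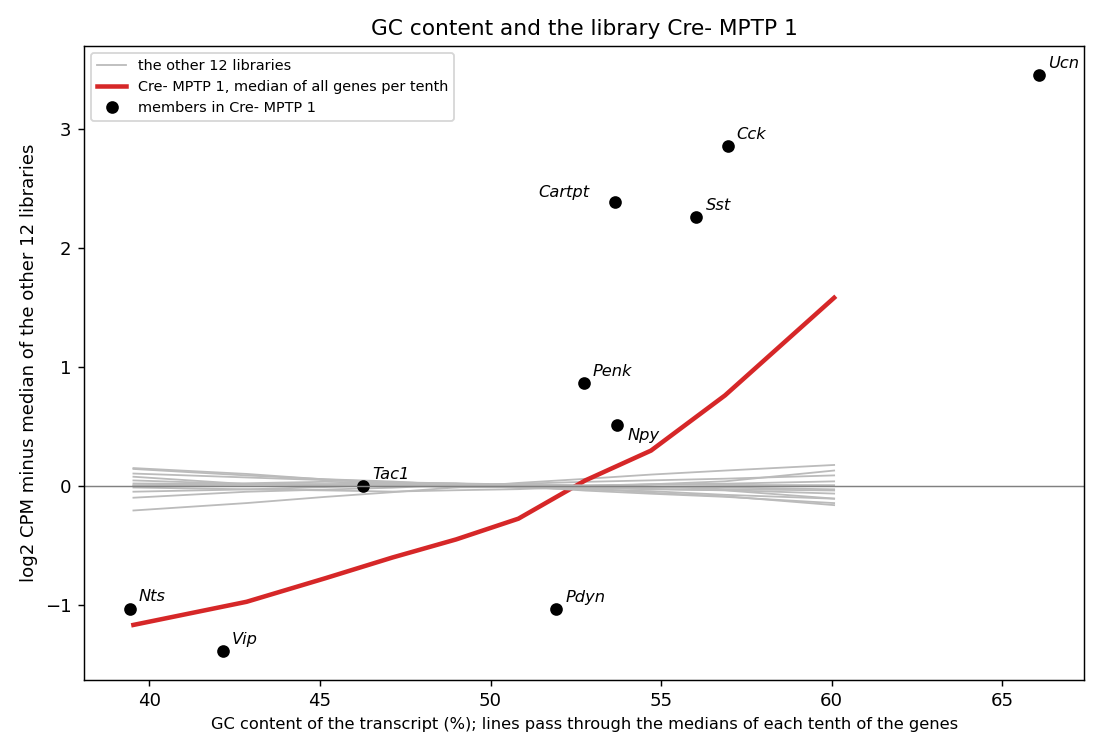
The x axis is the GC content of the transcript in percent and the y axis the log2 CPM minus the median of the other 12 libraries, with a line through the medians of 10 GC groups of all genes for each library (Cre- MPTP 1 in red) and a point for each member in Cre- MPTP 1. The red line rises from -1.17 to 1.58, Nts lies on it at the low end, and Cck, Cartpt and Sst lie more than 1 above it.

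The spread between mice of a group was measured as the SD of log2 CPM around the 4 group means. It was 1.08 for Ucn (97.3rd percentile of tested genes) and 0.964 for Cck (95.1st), then 0.748 for Cartpt, 0.719 for Sst, 0.591 for Vip, 0.583 for Npy and 0.507 for Pdyn. Nts (0.324), Penk (0.251) and Tac1 (0.174, 14.1st percentile) were below the median of all genes, 0.384. In the 11 mice without Cre- Saline 1 and Cre- MPTP 1 the order changed. Vip (0.472, 84.8th percentile) and Ucn (0.451, 83.5th) then varied most, Cck fell to 0.196 and Sst to 0.144, and the median of all genes was 0.166. In those 11 mice the highest level was 3.47 times the lowest for Ucn, 3.12 for Vip, 2.31 for Cartpt and 1.91 for Npy and for Pdyn, and at most 1.47 for the other 5 members.

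**Figure D4:**
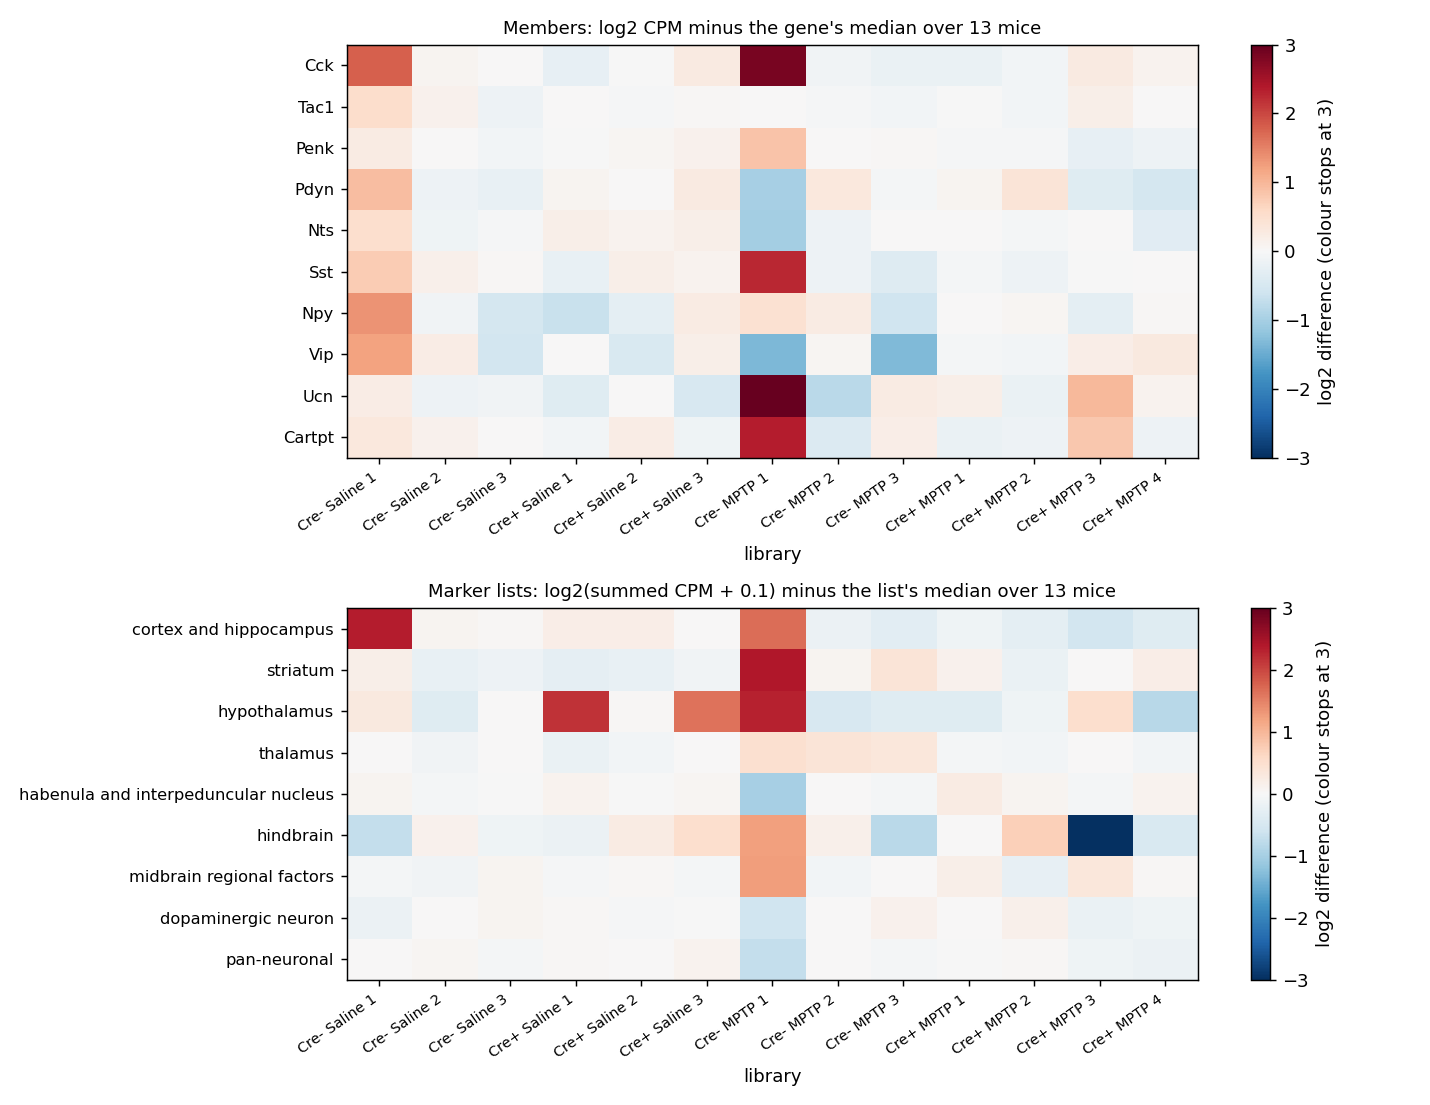
The upper map gives each member's log2 CPM minus its median over 13 mice, and the lower map the same for log2(summed CPM + 0.1) of marker lists, with red above and blue below the median (colour stops at 3). The columns Cre- Saline 1 and Cre- MPTP 1 stand out in the upper map, with cortical and hippocampal markers high in the first (88.8 CPM), and Cre+ MPTP 3 is high for Ucn and Cartpt and low for hindbrain markers (0.22 CPM).

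Ucn and Cartpt moved together from mouse to mouse. Over the 11 mice, as deviations from group means, their Pearson r was 0.925 (permutation p 3e-05, adjusted over 45 pairs of members 0.00135) and Spearman's rho 0.891 (permutation p 0.00063, adjusted 0.0284). Without the 2 mice farthest from the median r was 0.822. No other pair of the 45 passed in the 11 mice. Over all 13 mice 16 pairs passed, 15 of them with a positive r. Deviations within a group are tied to each other by its mean, while the permutation took all mice as exchangeable. The permutation p-values are therefore likely too small. Cck and Sst had an r of 0.953 (rho 0.951) over 13 mice and 0.640 (rho 0.691, adjusted permutation p of r 0.224) over 11. Ucn and Cartpt were both highest of the 11 mice in Cre+ MPTP 3 (Ucn 12.8 and Cartpt 74.3 CPM) and lowest in Cre- MPTP 2 (3.68 and 32.1 CPM).

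Cre+ MPTP 3 also differed in regional markers. Of all tested genes, 7.90% were higher in it than in the other 10 of the 11 mice and 7.84% were lower. All 7 of 7 hindbrain Hox genes were lower in it than in the other 10 of the 11 mice, with a sum of 0.22 CPM against 5.94 to 17.2 CPM, and Hoxb2, Hoxa3, Hoxb4, Hoxb5 and Hoxd3 were at 0. Of 10 midbrain regional factors, 6 were higher in it than in those 10 mice, Pax7, Pou4f1, Gata3, Sox14, Otx2 and Tfap2b, as were 3 of 5 cortical markers, Emx1, Tbr1 and Fezf2, whereas Neurod2 was lower. Of 12 dopaminergic markers 5 were lower in it than in those 10 mice, Slc6a3, Slc18a2, Aldh1a1, Ret and Lmx1b, and none was higher. A regional difference was not particular to Cre+ MPTP 3. Cre+ MPTP 2 was below the 10 others for 6 of the 10 midbrain factors, against 9.24% of all genes. Those were Pax7, Pou4f1, Tal1, Sox14, Otx2 and Tfap2b, while its Ucn (5.59 CPM) and Cartpt (37.9 CPM) lay within the range of the 11 mice. Over groups the Hox sum was 6.39 to 11.6 CPM in Cre- Saline, 9.30 to 15.1 in Cre+ Saline, 5.94 to 24.9 in Cre- MPTP and 0.22 to 17.2 in Cre+ MPTP mice. The part of these differences in the Ucn and Cartpt values was not tested.

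**Figure D5:**
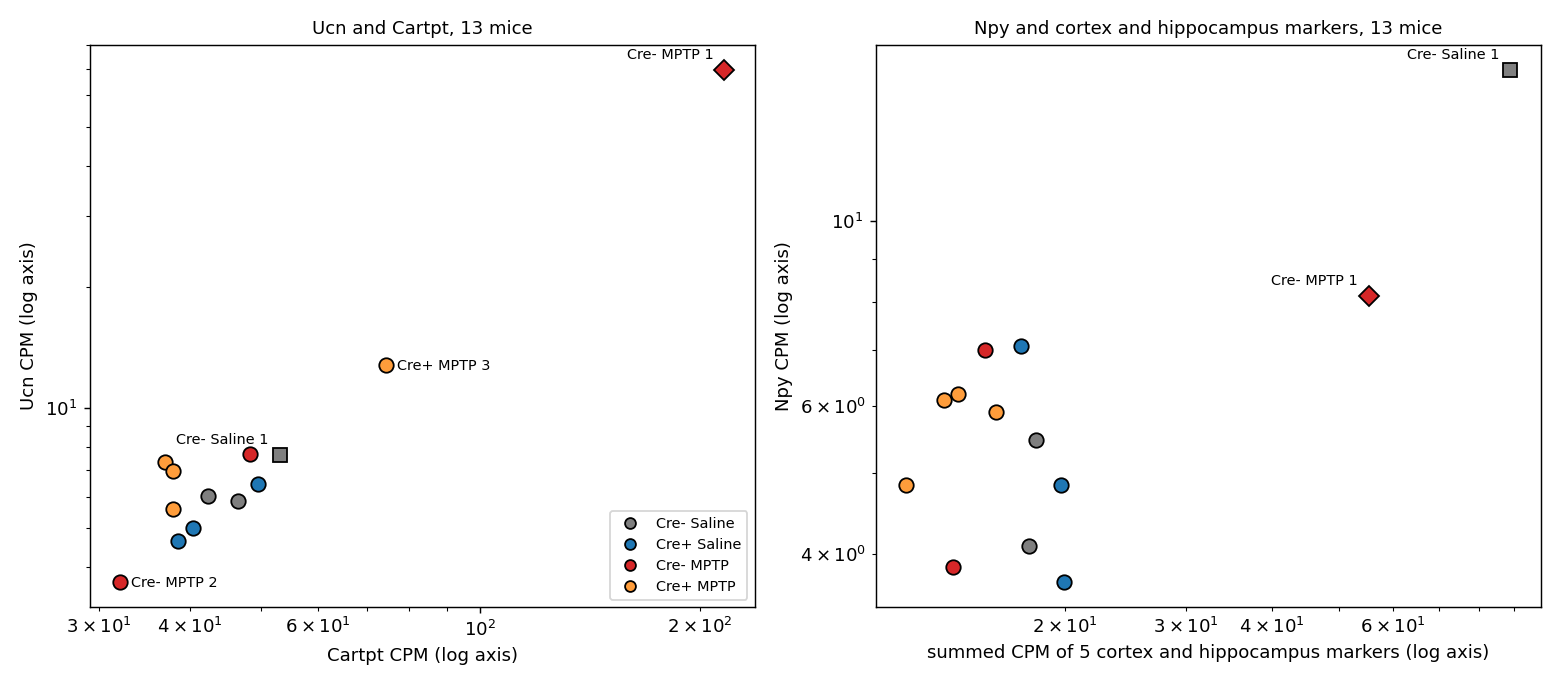
Left, Ucn against Cartpt, and right, Npy against the summed CPM of 5 cortical and hippocampal markers, each point 1 mouse on log axes of CPM, coloured by group (square Cre- Saline 1, diamond Cre- MPTP 1). Ucn and Cartpt rise together from Cre- MPTP 2 (3.68 and 32.1 CPM) to Cre- MPTP 1 (69.4 and 216 CPM), and Cre- Saline 1 has the highest value on both axes of the right panel (88.8 and 15.1 CPM).

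The receptors, the processing machinery and the other precursors of the neuropeptide system gave no call either in the edgeR fit to 13 mice. Of 25 receptors and binding proteins for the members 23 were tested, of 22 genes of propeptide processing and dense-core vesicles all 22, and of 33 other precursors 24. That fit called 0 of these genes in each of the 6 comparisons. In MPTP against Saline in Cre- mice, 2 receptors, 6 processing genes and 1 precursor had an unadjusted p under 0.05 in edgeR, against 15% of all genes, and the median log2 fold changes were 0.10, 0.048 and -0.060, against 0.025 over all genes. The receptor genes at the ends of the range were Crhr2 (0.76), a receptor for urocortin, and Sstr4 (0.61), and Vipr1 (-1.47) and Sstr5 (-0.74). Among processing genes these were Pcsk1n (1.92), whose product inhibits a prohormone convertase, and the peptidase gene Thop1 (0.96), with the granin gene Chgb (-0.45) and the convertase gene Pcsk1 (-0.43) lowest. Among precursors they were Pomc (1.72) and Avp (1.58), and Cort (-1.78) and Gnrh1 (-1.12). Gnrh1 was at 0 in Cre- MPTP 1, and Pomc reached 92.8 CPM in Cre+ Saline 1 and 74.0 CPM in Cre- MPTP 1 against 2.26 CPM in Cre- MPTP 2. Pcsk1n measured 8735 CPM in Cre- MPTP 1 and 556 to 1038 CPM in the other 12 mice. Without that mouse Pcsk1n passed in the other direction, at -0.54 (edgeR adjusted p 0.0354), while Crhr2 was at 0.072 and Avp at 0.046. That fit called 1812 of 19311 genes, against 616 of 19360 with all 13 mice, and calls among the rest of these lists are not given for it. Processing genes summed to 21452 CPM in Cre- MPTP 1 against 6233 to 7160 in the 11 mice. Of the 22 processing genes 7 were above the 11 mice there, Pcsk1n among them, against 34.8% of all tested genes. Below the 11 mice were 11, including Pcsk1, Pcsk2, Pam, Chgb and Scg2, against 43.5% of all tested genes, so both counts were near the shares of that library. Some marker genes passed in the edgeR fit to 13 mice. In MPTP against Saline in Cre- mice Prkcd, Gfap and Aldh1l1 were higher and Cnp, Mog, P2ry12 and Arc lower (3.18% of all genes passed). In Cre+ against Cre- mice given MPTP, Prkcd and Gfap were lower and P2ry12 higher (1.54%). P2ry12 also passed in the interaction, above 0 (0.0103%). In the averaged contrast Prkcd and Gfap were higher (2.84%). Cnp, Mog, P2ry12, Nr4a1 and, from the pituitary list, Gh and Prl were lower in that contrast.

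The genes whose pattern over 13 mice was most like a member's, by Pearson's r of deviations from group means, are given by name only, and r over the 3 closest ranged from 0.914 to 0.996. Cck was closest to Syt5, Spata2l and Ppp3ca, Sst to Ttc9b, Mettl9 and Smim19, Penk to Ccni, Hikeshi and Eif1b, and Tac1 to 9130024F11Rik, Gm26723 and Psrc1. Pdyn was closest to Ywhaz, Ica1 and A530058N18Rik, Nts to Prkcb, Trbc2 and Pantr1, Npy to Tnfaip8l3, 2010300C02Rik and Coch, and Vip to Iqgap2, Akap7 and mt-Tl2. Ucn was closest to Slx1b, St6galnac6 and Dgat1, and Cartpt to Ucn, Dgat1 and Med22. Only 1 of these 30 pairs was also among the 3 closest in the 11 mice, Vip and Iqgap2 (r of 0.947 over 13 and 0.955 over 11 mice).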

How the data were processed

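Midbrain RNA of 13 mice was sequenced from stranded total RNA libraries. Per the submitters' processing notes and the methods, the authors used Trimmomatic 0.36 for trimming, STAR 2.5.2b for mapping to GRCm38 and featureCounts (Subread 1.5.2) for counting uniquely assigned reads, and the deposited values are whole-number counts without normalization. The strand setting of the counting is not given in the sources used here. Symbols came from GENCODE M21 by gene ID (49056 of 49315 genes matched). Counts were tested with edgeR 4.0.16 in R 4.3.3: TMM factors, at least 10 counts in at least 3 libraries, 1 term per group over 13 libraries, the quasi-likelihood test, and Benjamini-Hochberg adjustment over 19360 genes at 0.05. The precision of low genes is limited by totals of 11489150 to 29397278 counts. Spread and correlations used log2 CPM with a prior count of 2, and correlation p-values 100000 permuted pairings, of which 1e-05 is the smallest possible. TPM were computed from the exon lengths in the files. GC content is that of the longest protein-coding transcript in GENCODE M21.

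Groups were taken from the genotype and treatment labels. The member rule gives gene names and no threshold, but the members and gene lists were chosen with earlier results of these data known. Genes named besides the members were those of the lists with an adjusted p under 0.05 in any comparison, the 2 highest and 2 lowest of each pathway list in Cre- MPTP against Cre- Saline, and the 3 most like each member. Alternatives were DESeq2 1.42.0, limma 3.58.1 voom with quality weights, edgeR on the groups compared, other scaling, no filter, a replicate block, another prior count and each library left out. The fit was tested on simulated data. Protein sequences were not analysed here, and some marker genes and a coding sequence are not reported.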

Additional observations from a re-analysis of the deposited data

Results flagged for a closer look

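Cartpt in Cre+ MPTP 3 was far from the other mice of its group, at 74.3 CPM against 37.0, 37.9 and 38.0 CPM, and the gap took up 0.973 of the group's range. It was the 1 value of its kind in 10 groups of 4 mice examined, 1 for each member in Cre+ MPTP mice, where chance sets apart about 1 in 20 groups. Ucn was also highest of its group in that mouse, at 12.8 CPM.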

How the results depend on the processing

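No member was called in any of the 6 comparisons with DESeq2, limma voom, other scaling, no filter, the GC trend removed and the replicate block, and leaving out 1 library gave 0 to 2 members in MPTP against Saline in Cre- mice, 0 to 1 in Cre+ against Cre- mice given MPTP and 0 in the others. The log2 fold change turned direction under limma voom in MPTP against Saline in Cre- mice Cck to -0.37, Pdyn to 0.14, Sst to -0.45, Ucn to -0.019, Cartpt to -0.15, Sstr4 to -0.022 and Pcsk1n to -0.30, in Cre+ against Cre- mice given MPTP Cck to 0.13, Pdyn to -0.15, Sst to 0.21, Npy to 0.24, Ucn to 0.43 and Cartpt to 0.085, and in the interaction Ucn to 0.64. Without Cre- Saline 1 and Cre- MPTP 1, an alternative chosen after seeing the data, it turned in MPTP against Saline in Cre- mice Cck to -0.19, Pdyn to 0.34, Nts to 0.017, Sst to -0.34, Npy to 0.19, Ucn to -0.053, Cartpt to -0.13, Sstr4 to -0.11, Pcsk1n to -0.40, Thop1 to -0.057 and Pcsk1 to 0.022, in Cre+ against Cre- mice given MPTP Cck to 0.18, Pdyn to -0.21, Nts to -0.018, Sst to 0.20, Npy to 0.085, Ucn to 0.52 and Cartpt to 0.21, in Cre+ against Cre- mice given Saline Npy to 0.13 and Vip to 0.045, and in the interaction Ucn to 0.66. With the GC trend removed, also chosen after seeing the data, it turned in Cre+ against Cre- mice given MPTP Tac1 to -0.17, Nts to -0.036 and Ucn to 0.052, and in the interaction Ucn to 0.15. Leaving out 1 library gave log2 fold changes in MPTP against Saline in Cre- mice Cck from -1.05 to 1.54, Penk from -0.039 to 0.42, Pdyn from -0.72 to 0.060, Sst from -0.60 to 1.15, Npy from -0.73 to 0.39, Ucn from -0.19 to 2.52, Cartpt from -0.23 to 1.45, Sstr4 from -0.019 to 0.89, Pcsk1n from -0.54 to 2.40, Thop1 from -0.081 to 1.29, Pcsk1 from -0.82 to 0.014 and Pomc from -1.02 to 2.80, in Cre+ against Cre- mice given MPTP Cck from -1.98 to 0.18, Pdyn from -0.21 to 0.37, Nts from -0.018 to 0.42, Sst from -1.54 to 0.20, Npy from -0.38 to 0.085, Ucn from -2.19 to 0.52 and Cartpt from -1.47 to 0.21, in Cre+ against Cre- mice given Saline Npy from -0.98 to 0.13 and Vip from -0.87 to 0.040, and in the interaction Ucn from -1.92 to 0.79. Of 41 log2 fold changes reported, 17 kept their direction under all alternatives run and 24 turned under at least 1, and the cause was not tested. Pairs of same-numbered mice had an r from -0.179 to 0.184 (18 pairs, 3 of them over 0.1). Values for differently numbered mice are not given here, so whether same-numbered mice deviate together was not tested. The edgeR fit with mouse number as a replicate block called 0 members. In MPTP against Saline in Cre- mice that fit had 0 members at an unadjusted p under 0.05, against 10.96% of all genes. The lowest adjusted p of a member there was 0.459 (edgeR). Over all genes the numbers called in MPTP against Saline in Cre- mice and in Cre+ against Cre- mice given MPTP were 616 and 299 in edgeR, 428 and 0 with the block, 110 and 0 in edgeR on the compared groups, 1133 and 834 in DESeq2, 2624 and 1224 in limma voom, 919 and 477 with the GC trend removed and 1480 and 777 without both libraries. The averaged contrast had 549 in edgeR, 345 with the block, 988 in DESeq2, 2768 in limma voom and 1770 without both, and the interaction 2, 0, 223, 689 and 185. MPTP against Saline in Cre+ mice had 0 in edgeR, 83 in DESeq2, 294 in limma voom, 15 on the compared groups and 36 without both. Depth limits Vip, Nts and Pdyn most, with 19, 23 and 24 counts in Cre- MPTP 1.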
